A study of Homo sapiens with 8 samples.

Results

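Lysosomal enzymes and membrane proteins were followed here as a set of 46 genes, listed by symbol, in SH-SY5Y cells before and after differentiation. All 46 symbols were found among the 52719 genes summed from the deposited table. SH-SY5Y is an established human neuroblastoma line. The undifferentiated group had 4 libraries (replicates 17 to 20) from cells with no recorded treatment, and the differentiated group had 4 (replicates 21 to 24) from cells given 1 µM 9-cis retinoic acid for 7 days. All cells grew in the same medium with foetal calf serum, and the labels give no time in culture for the undifferentiated cells, so days in culture and the retinoid cannot be told apart. Nothing in the labels tells whether replicates come from separate cultures, and each p-value therefore rests on library-to-library spread that may be technical.

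Lysosomes are acidic organelles in which hydrolases break down proteins, sugars, glycolipids and other lipids delivered by endocytosis and autophagy. Most soluble enzymes reach them on mannose 6-phosphate receptors, while heavily glycosylated proteins such as LAMP1 and LAMP2 line their membrane. TFEB, TFE3 and MITF are related transcription factors that bind the CLEAR element, an E-box found before many lysosomal genes. Inherited loss of many of these enzymes causes storage disease, often with damage to neurons. The treatment, 9-cis retinoic acid, activates nuclear receptors of the RAR and RXR families.

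Values are in TPM (transcripts per 1000000), a share of a library corrected for transcript length. Because every library is scaled to the same total, sequencing depth is unknown, and counting error could not be estimated. In bulk RNA, more cells of a type and more RNA per cell cannot be told apart. Of the 16 sympathetic neuroblastoma markers, 15 reached a mean of 1 TPM; tyrosine hydroxylase (TH) stayed under 1 TPM in every library. In differentiated cells 12 of the 15 fell and 1 rose, where 17.4% of all genes tested fell and 33.9% rose. The 1 that rose was PHOX2A, which averaged 224 TPM in undifferentiated and 427 TPM in differentiated libraries. The summed level of the 16 markers went from 2755 to 2865 TPM (range over undifferentiated libraries) to 1704 to 1950 TPM. Lane 7 held undifferentiated replicates 17 and 18, and lane 8 held all the others.

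The lysosomal genes were higher in differentiated cells almost throughout the set. Of the 46, 45 averaged at least 1 TPM and were tested, of which 41 rose, 0 fell and 4 did not pass (limma on log2(TPM+1), Benjamini-Hochberg adjusted p under 0.05 over all 17077 genes tested; the largest adjusted p of a gene that rose was 0.00971 by limma). Over all genes tested, 33.9% rose and 17.4% fell, 51.3% in all. In the same 41 genes every differentiated library lay above every undifferentiated one, which held for 32.3% of all genes. The median log2 fold change of the 45 was 1.02, with quartiles of 0.55 and 1.43, against 0.10 with quartiles of -0.21 and 0.46 for all genes. In 24 of the 45 it was 1 or more, against 9.53% of all genes, or 8.84% counting only those that also passed. Adding 1 before taking logs makes fold changes of weakly expressed genes look smaller than they are.

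**Figure D1:**
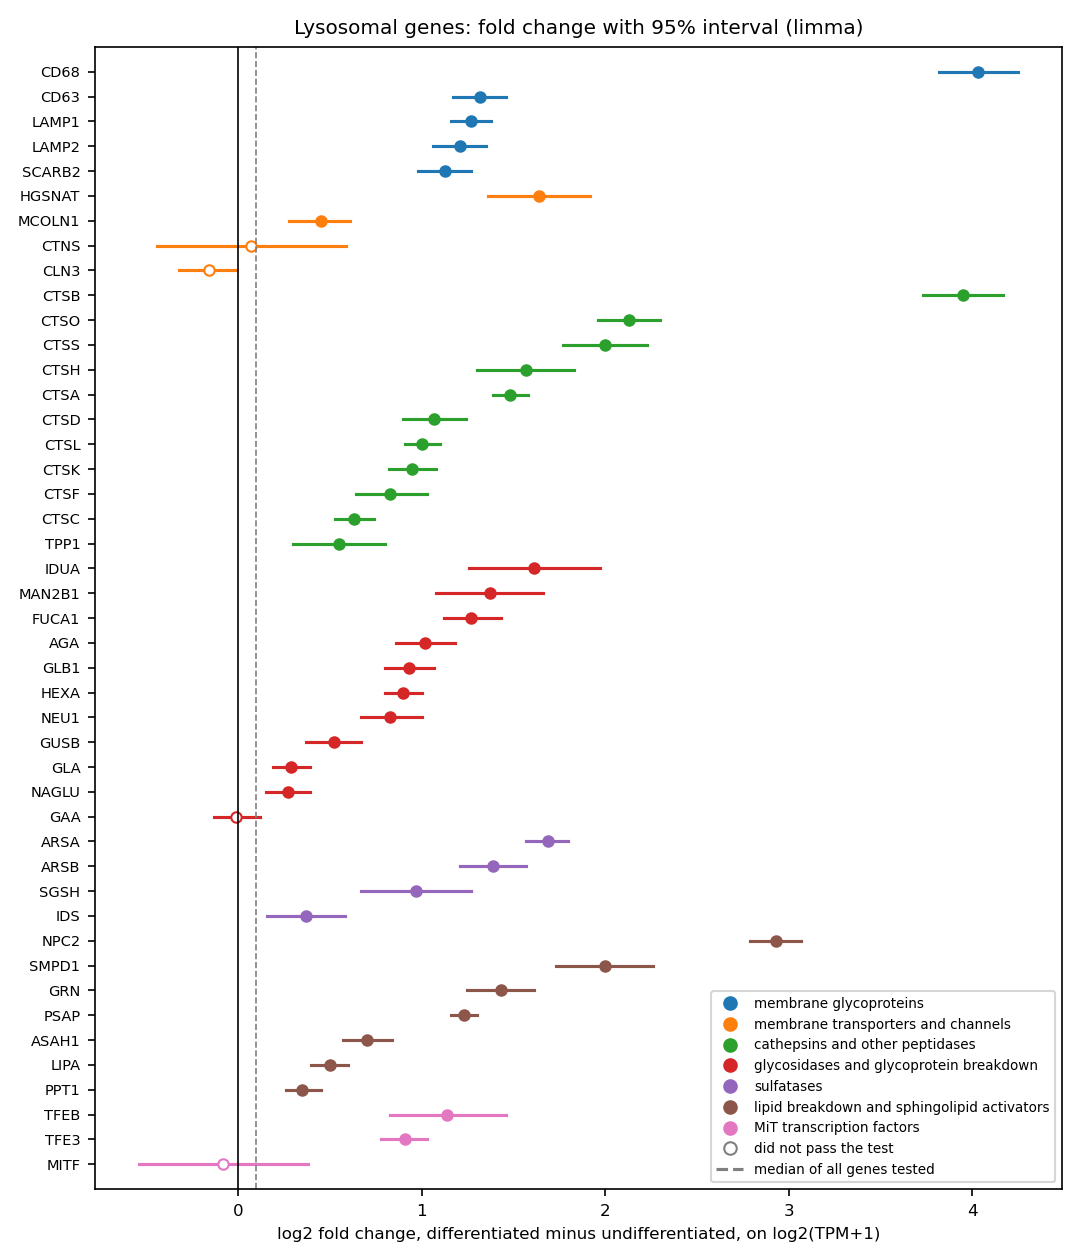
Log2 fold change of each of the 45 lysosomal genes tested (points, with 95% intervals from limma), grouped by role. Filled points rose and open points (CTNS, CLN3, GAA, MITF) did not pass; CD68, CTSB and NPC2 lie furthest right, at 4.03, 3.95 and 2.93.

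**Figure D2:**
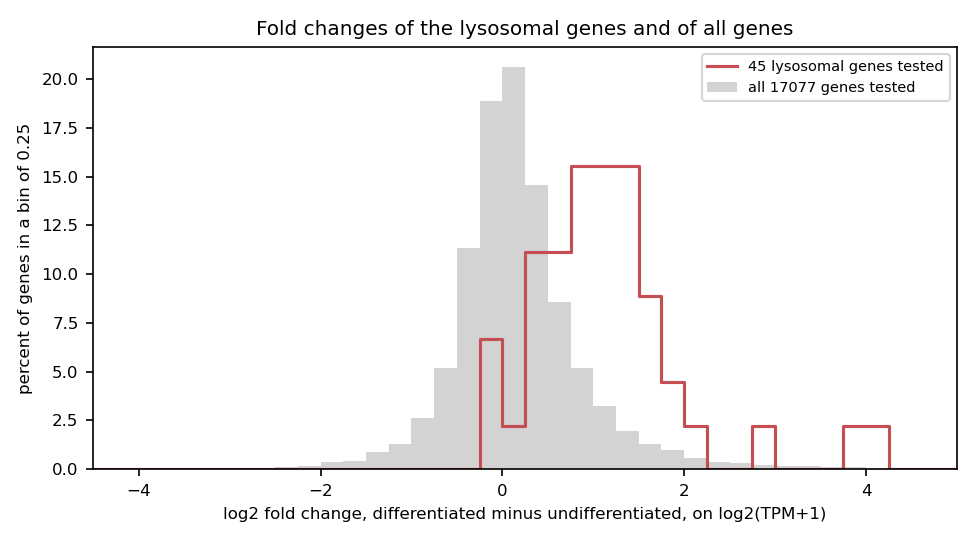
Share of genes in each bin of 0.25 of log2 fold change, for all 17077 genes tested (grey bars) and for the 45 lysosomal genes (red line). The grey bars centre on a median of 0.10 and the red line on 1.02.

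How libraries were scaled moved the count of falls. With median-of-ratios scaling the median of all genes moved from 0.10 to -0.02, and 39 lysosomal genes rose and 2 fell (CLN3 and GAA) with a median of 0.89. Over all genes, 4605 rose and 4457 fell in that setting, against 5791 and 2970 with TPM as deposited. With quantile normalization the median of all genes was -0.07, 4173 rose and 5098 fell, and among the lysosomal genes 38 rose and 2 fell with a median of 0.87. Within lane 8 alone, with 2 undifferentiated and 4 differentiated libraries, 39 of the 45 rose and 0 fell. Between the lanes, within undifferentiated libraries, limma called 0 of the 45 (0 also at an unadjusted p under 0.05), where it called 0.17% of all genes, or 4.18% at an unadjusted p under 0.05.

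Summed over the 46 genes, the lysosomal transcripts held 1463, 1446, 1462 and 1451 TPM in undifferentiated replicates 17 to 20 and 3873, 3749, 3902 and 3958 TPM in differentiated replicates 21 to 24. Their share of a library thus went from 0.146% to 0.387%. The sums varied little within a group, at 1455 ± 8.47 and 3870 ± 88.6 TPM (SD, n = 4 each), and did not overlap. Cathepsin B alone made up 3.32% of the summed level in undifferentiated cells and 19.8% in differentiated cells, and 29.7% of the difference between the sums. Without it the sum still went from 1407 ± 6.97 to 3105 ± 26.9 TPM, which is 2.21 times the undifferentiated level.

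**Figure D3:**
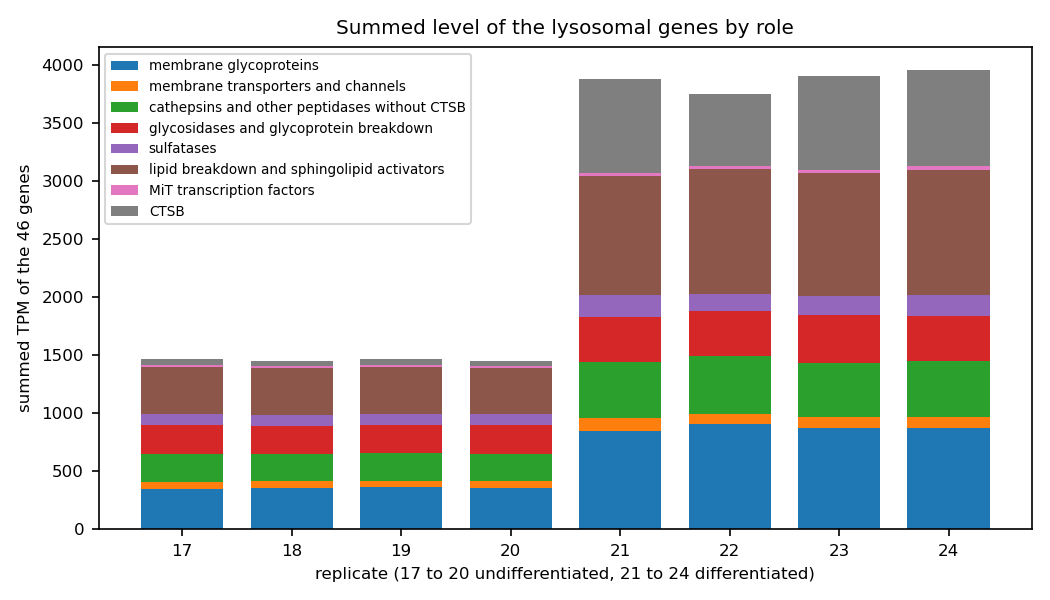
Summed TPM of the 46 lysosomal genes in each library, stacked by role, with cathepsin B (CTSB) drawn on its own at the top. The bars stand between 1446 and 1463 TPM in undifferentiated and between 3749 and 3958 TPM in differentiated libraries.

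Promoter sequence was also looked up for the set. RefSeq windows on GRCh38.p14, from 250 bases before to 50 after a start site, were present for 34 of the 46 genes, matched by symbol. LAMP2, HGSNAT, CTSB, CTSK, CTSO, CTSS, HEXA, NAGLU, ARSA, SGSH, PSAP and ASAH1 had no entry. The 8-base CLEAR core TCACGTGA, which reads the same on both strands, was in a window of 5 of the 34 genes (14.7%), against 0.98% of all 35116 windows. Some genes have several windows, and counted by gene the share over all genes was 1.18%. The CLEAR element is known from promoters of lysosomal genes, so a higher share here was foreseeable and is not an independent result. The core flanked by G before it and C after it, the full palindrome, was in 2 of 34 (GAA and MCOLN1), against 0.353% of all windows and 0.421% of all genes. The E-box CACGTG, which lies inside both, was in 10 of 34 (29.4%), against 7.26% of all windows and 8.77% of all genes. The related M-box TCATGTGA, searched on both strands, was in 4 of 34 (11.8%, in PPT1, TPP1, CD63 and GRN), against 0.9995% of all windows and 1.24% of all genes. A direct repeat of the retinoid receptor half-site, 2 copies of AGGTCA with 5 bases between them on either strand, was in 0 of 34 and in 2 of all windows (0.0057%). A sequence so rare in all windows would hardly be met in 34 genes, so its absence says nothing about retinoid receptor sites there. Variants of the half-site and other spacings were not searched.

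The 5 genes with the CLEAR core are shown with CD68, the gene with the largest fold change, as 85 bases before to 10 bases after the start site, 5′ to 3′ on the gene's strand, with TCACGTGA in capitals. The regions are chr13:113297154-113297248 (plus strand) for LAMP1, chr19:7522539-7522633 (plus) for MCOLN1, chr20:45891250-45891344 (plus) for CTSA, chr17:80101496-80101590 (plus) for GAA, chr16:28492065-28492159 (minus) for the start of CLN3 that lies lower on the chromosome of its 2 listed ones, and chr17:7579553-7579647 (plus) for CD68.
LAMP1: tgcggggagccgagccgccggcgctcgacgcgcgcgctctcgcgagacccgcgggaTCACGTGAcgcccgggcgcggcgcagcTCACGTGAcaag
MCOLN1: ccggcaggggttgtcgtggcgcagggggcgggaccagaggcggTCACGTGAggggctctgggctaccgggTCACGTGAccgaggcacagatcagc
CTSA: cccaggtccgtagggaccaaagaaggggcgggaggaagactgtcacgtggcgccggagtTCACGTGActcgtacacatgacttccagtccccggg
GAA: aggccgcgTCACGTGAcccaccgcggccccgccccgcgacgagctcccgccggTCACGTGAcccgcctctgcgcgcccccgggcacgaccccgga
CLN3: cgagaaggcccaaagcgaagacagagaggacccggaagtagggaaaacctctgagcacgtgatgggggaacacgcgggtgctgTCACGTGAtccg
CD68: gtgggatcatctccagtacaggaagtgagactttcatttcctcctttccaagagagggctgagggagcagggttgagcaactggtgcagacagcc
LAMP1, MCOLN1 and GAA each hold the core at 2 places and CTSA and CLN3 at 1, while CD68 holds neither it nor CACGTG in its whole window. Of the 5 genes with the core, 3 rose (LAMP1, CTSA and MCOLN1) and 2 did not pass (GAA and CLN3), with a median log2 fold change of 0.45. Of the other 28 genes with a window that were tested, 26 rose, with a median of 1.01. These matches are a description of the sequence and show no binding.

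The membrane glycoproteins rose in all 5 cases. LAMP1, the most abundant structural protein of the lysosomal membrane and shown above with 2 CLEAR cores, measured 38.6, 39.6, 41.6 and 39.9 TPM in undifferentiated and 91.9, 103, 97.6 and 98.6 TPM in differentiated replicates. All differentiated values were more than 2 times as high, with a log2 fold change of 1.27 ± 0.05 SE (limma, adjusted p = 1.98e-07). LAMP2, its paralog that also takes part in chaperone-mediated autophagy, went from 23.4, 25.2, 25.1 and 25.5 to 63.1, 55.6, 54.1 and 62.0 TPM (1.21 ± 0.06). The tetraspanin CD63, found on late endosomes and exosomes, was the highest of the 46 genes in undifferentiated cells, at 183 ± 2.82 TPM, and reached 459 ± 42.7 TPM. SCARB2, the receptor that carries glucocerebrosidase to lysosomes, went from 107 ± 1.54 to 236 ± 20.7 TPM (SD, n = 4 each).

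CD68, a LAMP-family glycoprotein best known as a macrophage marker, had the largest log2 fold change of the set, 4.03 ± 0.09 SE (limma, adjusted p = 2.35e-08), and ranked 33 among all genes by rise. It measured 0.476, 0.212, 0.267 and 0.399 TPM in undifferentiated and 19.3, 23.3, 20.8 and 20.3 TPM in differentiated replicates. Its undifferentiated values all lay under 0.5 TPM, where the error of TPM is not known, and it entered the test only through its differentiated libraries. Its 1878-base protein-coding transcript CD68-201 held 93.3% of the differentiated level, at 19.5 ± 2.10 TPM. GENCODE 29 places CD68 (ENSG00000129226) on chromosome 17 of GRCh38, plus strand, from base 7579467 to base 7582113. No marker of macrophages or other blood cells that could be tested rose with it, but only 2 could be. Of 14 listed, 13 were found, and 10 of these stayed under 1 TPM in every library. The leukocyte antigen PTPRC averaged 0.360 and 0.412 TPM, CD14 0.482 and 0.479 TPM, CSF1R 0.163 and 0.274 TPM, and TYROBP and AIF1 were listed at 0 in all undifferentiated libraries and averaged 0.0255 and 0.0228 TPM in differentiated ones. The summed level of the list was 5.41 to 8.33 TPM in undifferentiated and 3.52 to 6.94 TPM in differentiated libraries. The 2 tested, FCER1G and the scavenger receptor CD163, did not pass (log2 fold changes -0.07 and -0.42). CD163 fell with median-of-ratios scaling (-0.51), with quantile normalization (-0.62) and without differentiated replicate 21 (-0.57, limma adjusted p = 0.0260).

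Among the 4 genes grouped as membrane transporters and channels, of which HGSNAT is an enzyme, 2 rose. HGSNAT, which acetylates heparan sulfate with acetyl groups from the cytosol, measured 15.6, 15.6, 16.4 and 16.8 TPM in undifferentiated and 62.9, 40.3, 52.1 and 56.1 TPM in differentiated replicates (1.64 ± 0.12). The lowest differentiated value, in replicate 22, was still above 2 times any undifferentiated one. MCOLN1, the calcium channel mucolipin, which also has 2 CLEAR cores in its window, rose by less, from 11.6 ± 0.394 to 16.2 ± 1.53 TPM (0.45 ± 0.07). With quantile normalization it did not pass (0.25, limma adjusted p = 0.0857). On the same strand MCOLN1 overlaps PNPLA6, whose log2 fold change was 1.11, so reads may be divided between them. The Batten disease protein CLN3 measured 19.4, 19.4, 18.3 and 20.1 against 18.7, 16.1, 18.1 and 15.8 TPM, groups that overlap, and did not pass with TPM as deposited (-0.16, 95% interval -0.32 to -0.01, limma adjusted p = 0.0745). It fell with median-of-ratios scaling (-0.29, limma adjusted p = 0.00532), with quantile normalization (-0.34), with array weights (-0.20) and without differentiated replicate 21 (-0.20, limma adjusted p = 0.0341). The cystine exporter CTNS measured 8.52, 11.3, 10.8 and 9.92 against 16.3, 7.36, 8.47 and 12.6 TPM. Its differentiated libraries lay on either side of all undifferentiated ones (0.07, 95% interval -0.44 to 0.59).

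All 11 cathepsins and other peptidases that could be tested rose. Cathepsin B (CTSB), a cysteine protease with endopeptidase and exopeptidase activity, showed the largest difference in TPM of the 46 genes. It measured 50.3, 44.3, 48.3 and 50.2 TPM in undifferentiated and 802, 622, 806 and 832 TPM in differentiated replicates. No library overlapped, and replicate 22 lay furthest below the other differentiated ones. The log2 fold change was 3.95 ± 0.10 SE (limma, adjusted p = 2.62e-08), and among the 46 genes CTSB moved from rank 9 to rank 1 by level.

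The other cysteine cathepsins rose over a wide range. CTSO measured 2.03, 1.85, 2.03 and 2.17 TPM in undifferentiated and 12.8, 12.9, 11.1 and 12.1 TPM in differentiated replicates (2.13 ± 0.07), so its level was 6.05 times as high. CTSS, a protease of antigen-presenting cells that stays active at neutral pH, went from 1.32, 1.54, 1.33 and 1.59 to 9.47, 9.06, 7.24 and 9.47 TPM (2.0 ± 0.10). CTSK, the collagenase of osteoclasts, went from 8.96 ± 0.533 to 18.3 ± 0.378 TPM, and CTSL, a broad endopeptidase, from 24.9 ± 0.659 to 50.96 ± 1.33 TPM. These last 2 were nearly equal in fold change, at 0.95 and 1.00. CTSF rose from 14.04 ± 0.936 to 25.89 ± 3.001 TPM (0.83, or 1.37 with only its protein-coding transcripts summed), and CTSC, which activates granule serine proteases by removing dipeptides, had the smallest rise among the tested cathepsins, from 74.0 ± 1.69 to 115 ± 6.05 TPM (0.63 ± 0.05). CTSH, an aminopeptidase, rose from 10.2 ± 1.54 to 32.1 ± 3.58 TPM, but its transcripts annotated as protein coding held only 7.88% and 6.40% of that level. Summed alone they averaged 0.812 and 2.12 TPM and did not pass (0.85, limma adjusted p = 0.0690). CTSZ was the gene under the minimum, at 0.0484 ± 0.0466 and 0.0411 ± 0.0300 TPM, and was listed at 0 in replicates 19 and 24.

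The peptidases of other classes rose as well. CTSD, the main aspartic protease of the lysosome, measured 27.6, 30.6, 31.3 and 29.2 TPM in undifferentiated and 59.6, 72.9, 61.8 and 59.7 TPM in differentiated replicates (1.07 ± 0.08). CTSA, a serine carboxypeptidase that also holds neuraminidase and beta-galactosidase in a complex, went from 36.1 to 40.2 TPM over undifferentiated libraries to 104.8 to 110.2 TPM over differentiated ones (1.48 ± 0.04). Its gene overlaps, on the opposite strand, PLTP and NEURL2, which had log2 fold changes of 1.66 and 0.49, and whether the authors' counting used strand is not given in the sources used here. TPP1, a tripeptidyl peptidase lost in a childhood form of Batten disease, rose from 32.9 ± 3.01 to 48.8 ± 6.71 TPM (0.55 ± 0.11).

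**Figure D4:**
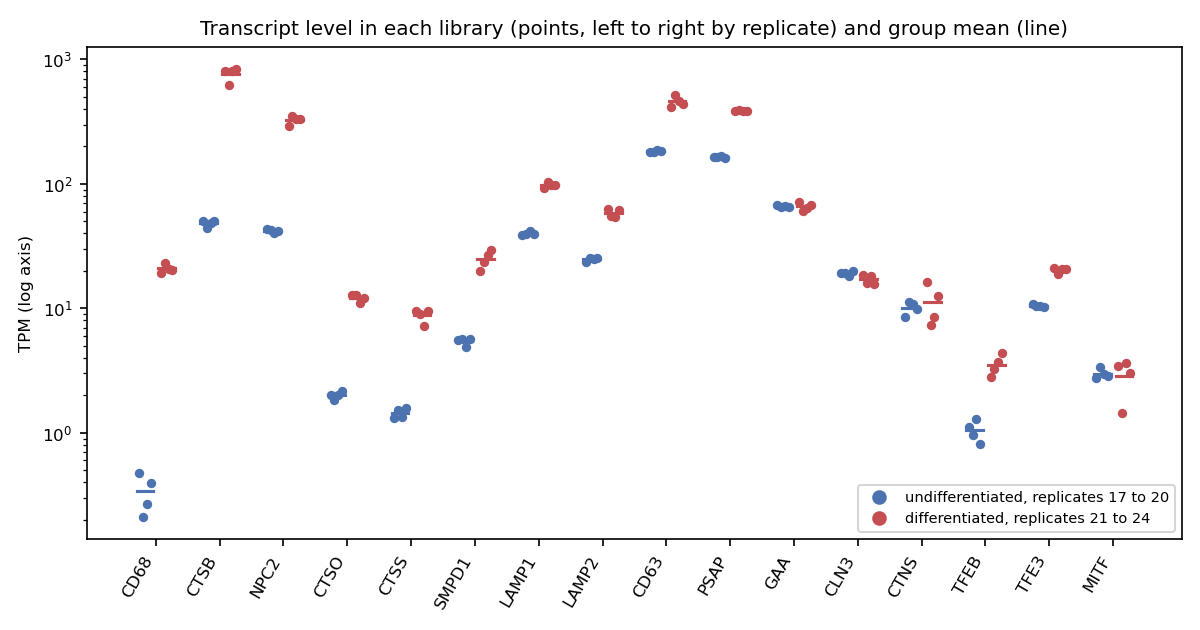
TPM on a log axis in each library (points, in replicate order) with group means (lines) for 16 of the lysosomal genes, undifferentiated in blue and differentiated in red. The groups are far apart for CD68, CTSB and NPC2 and overlap for GAA, CLN3, CTNS and MITF.

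Of the 11 glycosidases and other enzymes of glycoprotein and glycosaminoglycan breakdown, 10 rose and GAA did not pass. The largest rise was in IDUA, which removes iduronic acid from heparan and dermatan sulfate, from 7.96, 8.20, 6.73 and 8.82 to 24.0, 21.5, 36.0 and 25.3 TPM (1.61 ± 0.15). MAN2B1, an alpha-mannosidase, and FUCA1, an alpha-fucosidase, rose from 11.9 ± 1.91 to 32.3 ± 4.14 TPM and from 5.998 ± 0.132 to 16.0 ± 1.39 TPM. AGA, which cleaves the link of sugar to asparagine, the beta-galactosidase GLB1, the hexosaminidase alpha chain HEXA and the sialidase NEU1 formed a closer group, with log2 fold changes of 1.02, 0.93, 0.90 and 0.83. GLB1 measured 26.6, 24.8, 24.0 and 26.9 against 51.8, 51.8, 49.6 and 46.03 TPM, and HEXA 35.9, 34.3, 36.96 and 33.6 against 68.8, 64.6, 65.6 and 67.0 TPM. In all 4 genes every differentiated library lay above the undifferentiated range.

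The beta-glucuronidase GUSB, often used as a reference gene, rose from 25.3 ± 1.52 to 36.7 ± 2.63 TPM (0.52 ± 0.07). Its protein-coding transcripts alone rose from 2.43 ± 1.72 to 11.4 ± 0.292 TPM, a larger fold (limma adjusted p = 2.57e-04). GUSB has many pseudogene copies, so reads may be divided between them, and its value is uncertain. The pseudogene with the highest undifferentiated level, GUSBP14, averaged 16.1 and 8.78 TPM. GLA, the alpha-galactosidase lost in Fabry disease, rose from 30.7 ± 0.956 to 37.8 ± 1.24 TPM (0.29 ± 0.04) and NAGLU, a heparan sulfate glucosaminidase, from 12.6 ± 0.432 to 15.4 ± 0.605 TPM (0.27 ± 0.05). Neither passed with median-of-ratios scaling (0.16 and 0.15, limma adjusted p = 0.0672 and 0.123) or with quantile normalization (0.15 and 0.08), and NAGLU did not pass within lane 8 (0.23, limma adjusted p = 0.0522). GAA, the acid alpha-glucosidase that breaks down glycogen, measured 67.6, 65.8, 67.0 and 65.4 TPM in undifferentiated and 71.8, 60.7, 64.5 and 67.7 TPM in differentiated replicates. The groups overlapped, with a log2 fold change of -0.01 and a 95% interval of -0.13 to 0.12. With only its protein-coding transcripts summed GAA rose, as described with the transcripts below, and it fell with median-of-ratios scaling (-0.14, limma adjusted p = 0.00766) and with quantile normalization (-0.12, limma adjusted p = 0.0197).

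All 4 sulfatases rose, ARSA and ARSB the most. ARSA, which removes sulfate from the myelin lipid sulfatide, measured 9.28, 9.18, 9.86 and 8.76 TPM in undifferentiated and 32.0, 33.1, 31.7 and 31.3 TPM in differentiated replicates (1.69 ± 0.05). The differentiated values were close to each other and more than 3 times the highest undifferentiated one. ARSB, a sulfatase of dermatan sulfate, rose from 9.47 ± 0.363 to 26.5 ± 2.79 TPM (1.39 ± 0.08). SGSH, a heparan sulfamidase, rose from 16.3 ± 2.37 to 32.9 ± 4.98 TPM (0.97 ± 0.13); on the opposite strand it overlaps SLC26A11, whose log2 fold change was 0.95. IDS, the iduronate sulfatase lost in Hunter syndrome, went from 59.8, 61.6, 60.2 and 58.3 to 90.6, 65.0, 75.9 and 82.1 TPM. Its log2 fold change was 0.37 ± 0.09 SE, and within lane 8 it did not pass (0.39, limma adjusted p = 0.0653). On the same strand IDS overlaps another protein-coding gene, whose log2 fold change was 0.77.

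All 7 genes grouped here under lipid breakdown and its activators rose. NPC2, which hands cholesterol to the membrane exporter NPC1, stood apart with 43.7, 42.6, 40.3 and 41.9 TPM in undifferentiated and 292, 354, 331 and 334 TPM in differentiated replicates. Every differentiated value was more than 6 times any undifferentiated one, with a log2 fold change of 2.93 ± 0.06 SE (limma, adjusted p = 1.47e-08). GENCODE 29 places NPC2 (ENSG00000119655) on chromosome 14 of GRCh38, minus strand, from base 74476192 to base 74494177. SMPD1, the acid sphingomyelinase, measured 5.61, 5.71, 4.87 and 5.68 against 20.1, 23.6, 27.0 and 29.3 TPM (2.0 ± 0.11). GRN, which encodes progranulin, rose from 33.6 ± 2.61 to 92.4 ± 8.09 TPM (1.43 ± 0.08). PSAP, the precursor of the saposins that help the sphingolipid hydrolases, measured 165, 164, 167 and 162 against 387, 394, 383 and 385 TPM (1.23 ± 0.03), with little spread in either group. The ceramidase ASAH1 rose from 62.6 ± 2.33 to 103 ± 7.17 TPM (0.70 ± 0.06). The acid lipase LIPA (0.50 ± 0.05) and the thioesterase PPT1 (0.35 ± 0.04) had the smallest rises of this group.

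Of the MiT transcription factors, TFEB and TFE3 rose and MITF did not pass. TFEB stayed low, at 1.11, 0.964, 1.30 and 0.809 TPM in undifferentiated and 2.80, 3.28, 3.70 and 4.37 TPM in differentiated replicates (1.14 ± 0.14, limma adjusted p = 1.68e-04). TFE3 was the most abundant of the family, with 10.8, 10.5, 10.4 and 10.2 against 21.3, 18.9, 20.8 and 20.9 TPM (0.91 ± 0.06). MITF measured 2.75, 3.41, 2.97 and 2.84 against 3.42, 1.44, 3.64 and 3.05 TPM, with replicate 22 the lowest and the groups overlapping (-0.08, 95% interval -0.54 to 0.38). Its melanocyte transcript MITF-206, which encodes MITF-M, was listed at 0 in all undifferentiated libraries and averaged 0.00769 TPM in differentiated ones, and the long form MITF-204 averaged 0.805 and 0.849 TPM. Of 10 melanosome genes, 8 stayed under the minimum for testing, among them the tyrosinase gene TYR at 0.0506 and 0.0283 TPM. The 2 tested rose, the pigment amyloid gene PMEL from 3.94 ± 0.520 to 7.94 ± 1.81 TPM and the glycoprotein gene GPNMB from 0.2504 ± 0.137 to 2.62 ± 0.457 TPM. GPNMB met the minimum only through its differentiated libraries, so the filter itself favoured a rise in this count. Among the untested 8, OCA2 and TYRP1 were lower in every differentiated library. OCA2 ranged from 1.197 to 1.407 TPM in undifferentiated and from 0.357 to 0.603 TPM in differentiated libraries, and TYRP1 from 0.6299 to 1.21 and from 0 to 0.199 TPM. With no filter on low values, 2 of the 10 rose and 2 fell by limma (median log2 fold change -0.02).

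The transcript table also showed which transcripts carried these levels. Protein-coding transcripts held 70.5% to 73.1% of the summed TPM of the 46 genes in undifferentiated libraries and 81.4% to 84.7% in differentiated ones. Over all protein-coding genes the same share was 83.2% to 84.0% and 82.1% to 85.9%, with overlapping groups. The remainder was annotated as retained introns (205 and 309 TPM in the group means), targets of nonsense-mediated decay (131 and 242 TPM) and processed transcripts (69.6 and 124 TPM). In 40 lysosomal genes both groups averaged at least 5 TPM. The protein-coding share was higher in every differentiated library than in every undifferentiated one in 13 of them, and lower in 0. The background was 9.84% and 3.74% of 9817 protein-coding genes. GAA was among the 13, at 32.9%, 31.3%, 32.5% and 33.1% in undifferentiated and 47.8%, 49.3%, 46.8% and 47.1% in differentiated replicates. Its protein-coding transcripts thus summed to 21.6 ± 0.694 and 31.6 ± 2.06 TPM and rose (0.53 ± 0.06, limma adjusted p = 2.80e-05), while the gene as a whole did not. The share of CTSA went from 34.1% ± 2.90 to 56.9% ± 7.49, that of CTSB from 84.6% ± 4.15 to 94.1% ± 1.54 and that of ARSA from 41.9% ± 2.39 to 52.2% ± 2.67 (SD, n = 4 each).

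**Figure D5:**
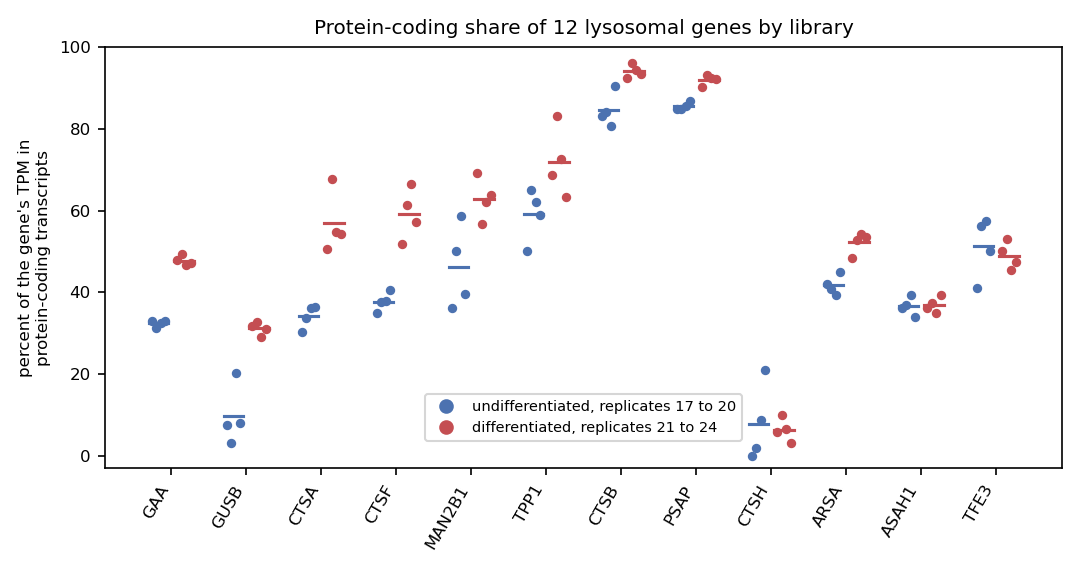
Percent of a gene's TPM held by transcripts annotated as protein coding, in each library (points, in replicate order) with group means (lines), for 12 of the lysosomal genes. For GAA, GUSB, CTSA, CTSF, CTSB, PSAP and ARSA all red points lie above all blue ones. For MAN2B1, TPP1, ASAH1, TFE3 and CTSH the groups overlap.

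Single transcripts were tested by their share of the gene. Of 93 transcripts of 35 lysosomal genes, 8 passed, 8.60% against 2.39% of all 22951 transcripts tested (limma adjusted p under 0.05 and a difference of 10 percentage points). Protein-coding transcripts made up 7 of the 8, all with a higher share in differentiated cells. These were GUSB-201 (9.71% ± 7.31 to 31.2% ± 1.55), CTSF-201 (33.5% ± 4.75 to 54.5% ± 5.46), NAGLU-201 (41.3% ± 2.74 to 59.1% ± 6.52), SGSH-201 (9.21% ± 2.35 to 23.8% ± 4.35), CTSD-201, GAA-202 and PSAP-201. The retained intron transcript GAA-206 had a lower share, 42.2% ± 3.14 falling to 28.7% ± 3.04. These calls depended on the libraries used: without replicate 17 or 18, or within lane 8, none of the 93 passed with limma, and without replicates 19, 20, 21, 23 and 24 in turn 3, 2, 5, 2 and 4 passed. LAMP2 has 3 well-known isoforms that differ in their last exon. LAMP2-202, which encodes LAMP2B, held 62.9% ± 1.98 and 57.8% ± 3.48 of the gene. LAMP2-201 (LAMP2A) held 25.7% ± 1.42 and 29.5% ± 4.15, and LAMP2-203 (LAMP2C) 11.2% ± 2.52 and 12.3% ± 2.75. None of the 3 shares passed (limma, adjusted p = 0.270, 0.370 and 0.760).

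The rest of the pathway was described with lists of other lysosomal genes, to be read against the 33.9% of all genes that rose and the 17.4% that fell. Over 6 such lists 95 of 157 tested genes rose and 6 fell, with TPM as deposited, against 78 and 19 with median-of-ratios scaling and 82 and 23 with quantile normalization. Of 32 other hydrolases and activators, 31 were tested and 26 rose and 0 fell (median 0.83). The sialate esterase SIAE rose from 5.16 ± 0.195 to 22.1 ± 1.75 TPM. The thiol reductase IFI30 rose by 1.39 on the log2 scale. Other membrane proteins moved less evenly, with 15 of 28 tested risen and 2 fallen (median 0.41). The sialic acid exporter SLC17A5 rose from 5.26 ± 0.496 to 18.5 ± 0.985 TPM, and GLMP, MFSD1 and LAPTM4A rose by 1.23, 1.02 and 0.92. The falls were in the channel TPCN1 (-0.66) and in LAPTM4B (-0.18), both named after their values were seen. Within lane 8 neither fall passed, and that of LAPTM4B passed without replicate 22 but not without any 1 of the other libraries.

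In the lists of the proton pump and of the machinery around the lysosome, 54 of 98 tested genes rose and 4 fell, with list medians from 0.12 to 0.38. These counts depended on scaling: 39 rose and 14 fell with median-of-ratios scaling, and 43 rose and 17 fell with quantile normalization. Of 21 tested V-ATPase genes, which acidify the lysosome, 13 rose and 2 fell (median 0.38). The accessory subunit ATP6AP2 rose from 46.8 ± 0.988 to 119 ± 7.59 TPM, ATP6AP1 by 0.96, ATP6V0C by 0.85 and ATP6V0E1 by 0.75. ATP6V1B2 and ATP6V1E2, named after their values were seen, fell by 0.39 and 0.44, the latter not with only protein-coding transcripts summed (-0.20). Of 26 tested genes of nutrient sensing at the lysosome, 15 rose and 1 fell (median 0.18), led by SESN3, SESN2, FLCN and the Rag GTPase RRAGB (1.20, 0.88, 0.87 and 0.80). The kinase MTOR, singled out for its role, did not pass, at 26.6 ± 1.83 and 27.1 ± 1.65 TPM. Of 27 tested genes of lysosome positioning and fusion, 16 rose and 0 fell (median 0.33), among them SYT7, which rose from 3.55 ± 0.172 to 9.56 ± 2.05 TPM, with PLEKHM1 and LYST also among the larger rises. Of 24 tested genes that sort enzymes to the lysosome, 10 rose and 1 fell (median 0.12, near the 0.10 of all genes), but 7 rose and 6 fell with median-of-ratios scaling (median -0.01). The mannose 6-phosphate receptor IGF2R rose from 26.9 ± 0.580 to 39.0 ± 4.37 TPM, and SORCS1, GNPTG and VPS29 rose by 0.75, 0.53 and 0.44.

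Of 17 listed cystatins, serpins and other protease inhibitors, 6 were tested, and 5 rose and 1 fell (median 1.19). Under median-of-ratios scaling the counts were 4 and 1. Cystatin C (CST3), a secreted inhibitor of cysteine cathepsins, rose from 20.1 ± 1.04 to 78.1 ± 13.6 TPM. SERPINB1, SERPINB8 and SERPINB6 rose by 1.94, 1.66 and 0.72, and the fall was in the neuronal serpin SERPINI1 (-0.38), named after its value was seen. It did not pass within lane 8 or without differentiated replicate 24. These serpins are known as inhibitors of several kinds of protease, not chiefly of the cathepsins described here. Genes of fibroblasts and mesenchymal cells, which also make cathepsin K, rose in 9 of 12 tested cases (0 fell, median 1.24), led by COL5A1, COL3A1, COL6A2 and FN1 (3.46, 3.40, 2.55 and 2.11). Their summed level was 445 to 482 TPM in undifferentiated and 1464 to 1578 TPM in differentiated libraries. COL1A2, COL6A3, PRRX1 and POSTN stayed under 1 TPM in every library, with POSTN at 0 throughout. The part of these cells or genes in the lysosomal result was not tested.

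Differentiated replicate 22 was the lowest of the 4 differentiated libraries in 17 of the 45 tested genes and the highest in 17. Replicate 21 was the lowest in 13 and the highest in 16, replicate 23 in 6 and 4, and replicate 24 in 9 and 8. Without replicate 22 41 of the 45 rose and none fell, as with all libraries, and the median log2 fold change was 1.05. Over all 17077 genes, limma called 9763 without replicate 22, against 8761 with all libraries. How often each library was lowest or highest was not counted over all genes, so whether these counts are particular to the lysosomal genes is not known.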

How the data were processed

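RNA of 4 undifferentiated and 4 differentiated SH-SY5Y libraries, grouped by their titles, was sequenced after stranded mRNA library preparation, per the labels' protocols. The authors deposited TPM for 194993 Ensembl transcripts. The submitters' processing notes name FastQC 0.11.2, Salmon and GRCh37; for Salmon's version, settings, annotation release and strand option, the sources used here give nothing. Salmon divides reads between similar sequences, so genes with close copies are uncertain, and shares of short or retained-intron transcripts are estimates.

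Transcripts were matched by identifier to GENCODE 29 (GRCh38; 180930, or 92.8%, matched, holding 93.2% to 95.0% of the TPM of a library), used for names, transcript types and positions. TPM were summed per gene. A gene entered the test if it averaged at least 1 TPM. The test was limma 3.58.1 (R 4.3.3, eBayes with trend) on log2(TPM+1), group as the only term. Libraries held 16265 to 17370 genes at 1 TPM or above. Transcript shares were tested on the arcsine square root scale, for genes averaging at least 5 TPM in both groups and mean shares of 10% to 90%. Promoters came from RefSeq (GRCh38.p14). Only the fit of gene levels and the fit of transcript shares were tried on simulated data, and the outcome is not given here. Python 3.11.15 was used for tables.

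The members, lists and tests were chosen with earlier results of these data known. The rule named all 46 genes, up to 4 called genes with the largest change per list, all called transcripts, and the isoforms of LAMP2 and MITF. Some genes that the rule named in the lists are not reported here. Alternatives changed the pseudocount, filter, scaling, transcript types, limma settings and libraries used.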

Additional observations from a re-analysis of the deposited data

Results flagged for a closer look

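In 5 of 92 groups of 4 libraries (46 genes in each condition), 1 library lay far from the other 3, by Dixon's criterion at 95%. Chance alone flags about 1 in 20 groups. CTSB in differentiated replicate 22 was low, at 622 TPM against 802 to 832 TPM in the others. CTSD in the same replicate was high, at 72.9 TPM against 59.6 to 61.8 TPM. GLA in differentiated replicate 24 was low, at 36.0 TPM against 38.3 to 38.6 TPM. In undifferentiated replicate 19, PPT1 was high, at 77.1 TPM against 71.1 to 71.3 TPM, and SMPD1 was low, at 4.87 TPM against 5.61 to 5.71 TPM. All 5 genes had risen in the comparison of the groups, and each call held without the library named (limma).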

How the results depend on the processing

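Of the 41 lysosomal genes that rose, 36 passed in the same direction under every one of 18 alternatives, the permutation test aside, that tested them (TFEB was not tested at a mean of 5 TPM); the exceptions were MCOLN1, CTSH, GLA, NAGLU and IDS. The number called stayed between 39 and 42. The exact two-sided permutation test cannot go below p = 0.0286 with 4 libraries against 4 and called 0 lysosomal genes, 0 genes of 8 further lists (lysosomal pathway, protease inhibitors, melanosome) and 0 of all genes (smallest adjusted p = 0.0576); at an unadjusted p under 0.05 it gave 41 and 8475, and limma called 41, 109 and 8761. GAA turned from -0.01 to 0.53 with only protein-coding transcripts summed. Called transcript shares numbered 8, with a range of 0 to 8 when leaving out 1 library, and 0 within lane 8; fewer libraries were used there. The summed level of the 46 genes was 1512 and 3675 TPM with median-of-ratios scaling and 1049 and 3195 TPM with protein-coding transcripts only. No paired analysis was possible because the groups share no replicate numbers. TPM keep no depth, so the error of low values such as CD68 and CTSZ is not known.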
